A study of Mus musculus with 6 samples.

Results

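The periosteum is the thin tissue on the outer surface of bone, and 73 of its nuclei with an osteogenic profile are described here in uninjured mice. They were selected on measured values. Barcodes were first limited to those in which 200 to 5000 genes were detected, with less than 2% of UMIs (unique molecular identifiers, each standing for 1 captured transcript) from mitochondrial genes and less than 1.5% from Rps and Rpl genes. Of these, nuclei were kept if they held at least 2 UMIs of Runx2 and at least 2 UMIs summed over Ostn, Pdzrn4, Tnc, Edil3, Ptprz1 and Wnt16. Nuclei with any UMI of Ptprc or Pecam1, or with 1% or more of their UMIs from Ttn, Neb, Ckm and Acta1, were left out. The 73 nuclei came from 1413 filtered uninjured nuclei under the muscle limit, out of 2101 uninjured barcodes and 13551 barcodes in the series.

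The study asked how the nuclei of mouse periosteum respond to a tibial fracture. All mice were 12-week-old C57BL6 animals, males and females mixed. The groups used here were uninjured periosteum (2 libraries, each from tibias of 4 mice pooled), and injured periosteum with hematoma or callus at day 3 (2 libraries), day 5 (1 library) and day 7 (1 library) after fracture, each from 4 to 9 mice pooled. Nuclei were sorted on a DNA dye and sequenced with a droplet 3′ protocol. The sources name no separate culture or animal behind libraries of 1 group beyond the pools, so any spread between them may be technical. Over all barcodes, libraries held 1499281 to 29796296 UMIs.

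Bone-forming cells arise from skeletal stem and progenitor cells through a Runx2-positive stage. RUNX2 is the transcription factor that commits cells to the osteoblast lineage, SP7 (osterix) acts after it, and the committed cells then lay down type I collagen and mineralize it with alkaline phosphatase (Alpl), bone sialoprotein (Ibsp) and osteocalcin (Bglap). In adult bone the deep layer of the periosteum holds such cells, and Postn (periostin) is a matrix protein named for this tissue.

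The promoters of Runx2 and of Bglap are shown because the first gene defines the nuclei and the second is a textbook target of the factor it encodes. Both are RefSeq windows on GRCm38.p6, running from 250 bases before the transcription start to 50 bases from it, written 5′ to 3′ along the gene. Capitals mark matches to the RUNX motif TGTGGT, which reads ACCACA on the other strand.
Runx2, chr17:44814578-44814877, minus strand: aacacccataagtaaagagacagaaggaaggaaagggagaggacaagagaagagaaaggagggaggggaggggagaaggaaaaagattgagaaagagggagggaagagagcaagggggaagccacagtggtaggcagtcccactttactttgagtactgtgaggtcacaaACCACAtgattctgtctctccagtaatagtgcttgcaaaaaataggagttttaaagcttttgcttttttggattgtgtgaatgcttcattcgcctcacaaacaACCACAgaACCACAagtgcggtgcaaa
Bglap, chr3:88384417-88384716, minus strand: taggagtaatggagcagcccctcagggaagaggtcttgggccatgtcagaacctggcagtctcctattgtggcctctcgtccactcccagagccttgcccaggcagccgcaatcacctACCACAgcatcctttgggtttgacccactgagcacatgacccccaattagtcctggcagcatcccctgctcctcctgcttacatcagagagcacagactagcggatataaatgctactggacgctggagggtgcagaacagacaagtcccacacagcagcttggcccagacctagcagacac
The Runx2 window held 3 matches and the Bglap window 1. The motif, searched on both strands, was found in 16.8% of all 32851 windows (5506). Of the 7 genes summed or counted in the selection, 5 had windows, 7 windows in all, of which 2 held the motif, the Runx2 window and 1 of Pdzrn4. A match describes letters only.

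Replicate 2 held nearly all of the nuclei. It contributed 71 of its 928 filtered nuclei under the muscle limit, 7.65% (6.02% to 9.55%), and replicate 1 contributed 2 of 485, 0.412% (0.05% to 1.48%; exact Clopper-Pearson 95% intervals, which like all intervals here cover counting error only). Median depth of those filtered nuclei was 1153 UMIs in replicate 1 and 2842.5 in replicate 2. Within ranges of depth the gap was also present, with 5.35% against 0.474% of nuclei under 1000 UMIs, 13.1% against 0% from 1000 to 2000, 8.33% against 0.980% from 2000 to 4000, and 5.88% against 0% from 4000 UMIs. The difference between the replicates has no test, since each is 1 pool, and its cause was not tested. Per the file headers, replicate 1 was processed with Cell Ranger 6.0.0 and replicate 2 with 7.1.0, which cannot be told apart from the replicate. What follows on uninjured nuclei therefore describes replicate 2 almost entirely.

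The same selection took larger shares of the day 5 and day 7 libraries. It kept 38 of 407 (9.34%) and 88 of 1416 nuclei (6.21%) of the day 3 libraries, then 724 of 2221 (32.6%) on day 5 and 281 of 1116 (25.2%) on day 7. The day 3 shares lay close to that of uninjured replicate 2, and those of days 5 and 7 lay above both uninjured libraries. No member shared its barcode with a nucleus of another library, and Scrublet marked none of the 73 as a doublet, although it marked 0.206% to 1.44% of nuclei per library.

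The 73 nuclei held 284101 UMIs in all, 552 to 23675 per nucleus with a median of 2630, and the deepest 5 held 30.3% of them. A level in CPM below is the UMIs of a gene scaled to counts per 1e6 UMIs of the summed nuclei, so that 1 UMI in the 73 nuclei is 3.52 CPM and a gene with no UMI there could reach 10.6 CPM (3 counts). Runx2 had 1202 UMIs, from 2 to 135 per nucleus with a median of 8. The nuclei of replicate 1 were shallow at 922 and 2226 UMIs. The first held 3 UMIs of Runx2, 4 of Tnc, 1 of Ptprz1 and 3 of Ibsp, and the second 8 of Runx2, 6 of Tnc, 2 of Sp7 and 19 of Mmp13.

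**Figure D1:**
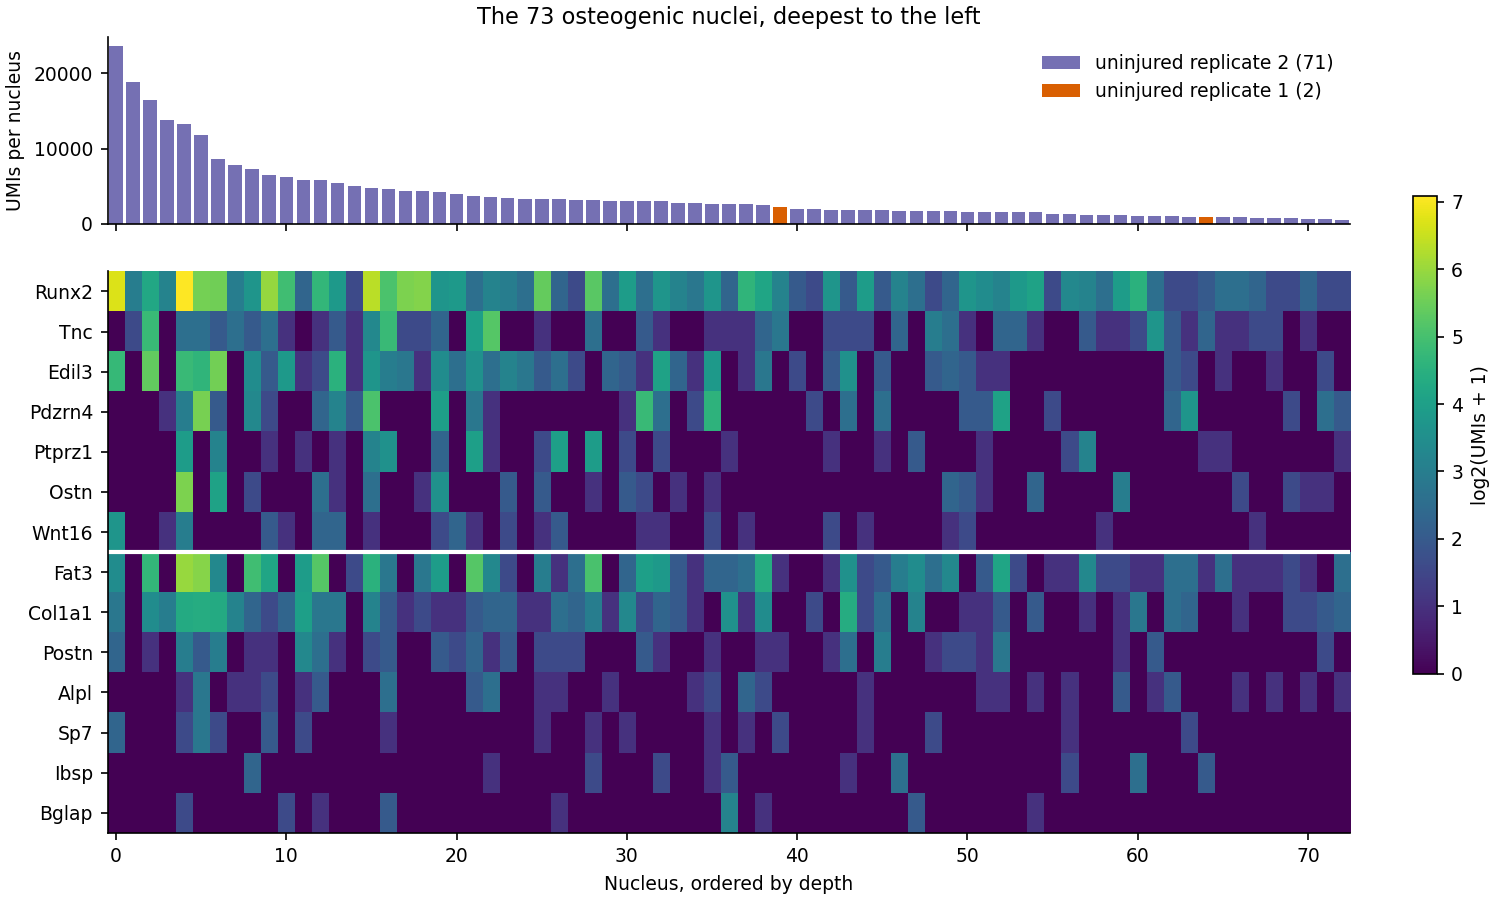
UMIs of the 73 osteogenic nuclei of uninjured periosteum, 1 column per nucleus, with total UMIs as bars and 14 genes as a heat map of log2(UMIs + 1). The genes above the white line chose the nuclei. Runx2 runs from 2 to 135 UMIs, while Ostn was found in 24 nuclei and Wnt16 in 24.

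The 6 genes summed in the selection were spread unevenly over the nuclei. Tnc, the matrix protein tenascin-C, had 245 UMIs in 51 nuclei and Edil3, a secreted integrin ligand, 387 UMIs in 48. Pdzrn4 had 261 UMIs in 30 nuclei. These genes were found in the most nuclei of the 6. Ostn, which encodes the secreted bone and muscle peptide osteocrin, had 131 UMIs in 24 nuclei, 51 of them (38.9%) in 1 nucleus. Ptprz1, a receptor phosphatase that binds pleiotrophin and tenascins, had 119 UMIs in 25 nuclei, and Wnt16, a Wnt ligand of cortical bone, 59 UMIs in 24. At least 1 of Ostn, Ptprz1 and Wnt16 was found in 48 nuclei (65.8%), and all 3 in 5. Of the 6 genes, 15 nuclei held only 1, 23 held 2, 16 held 3, 6 held 4, 9 held 5 and 4 held all.

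Nuclei just outside the limits resembled those inside in part. The 11 members with exactly 2 Runx2 UMIs had Fat3 at 1738 CPM and Postn at 280 CPM. The 24 nuclei that met every other limit but had 1 Runx2 UMI had Fat3 at 539 and Postn at 328 CPM, and the 47 with none had Fat3 at 211 CPM. The 12 members with exactly 2 UMIs of the 6-gene sum had Fat3 at 540 CPM, and the 10 nuclei with 1 had 475. The 42 nuclei with Runx2 but none of the 6 genes had Fat3 at 45.8 CPM and Csmd1 at 4053 CPM. Runx2 alone thus also marked nuclei of another profile.

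The label was checked against bone genes that were not used in the selection. These belong to the same nuclei, so the values are a description without a test, set beside the other 1340 filtered uninjured nuclei under the muscle limit. Folds have 10 CPM added to each level. Over all 14601 genes with at least 10 UMIs, 650 (4.45%) were at least 2-fold higher in the 73 nuclei and 1339 (9.17%) at least 2-fold lower, with a median log2 difference of -0.10. Of 23 bone matrix and mineralization genes with 10 UMIs, 13 were at least 2-fold higher and 0 lower, with a median of 1.44. Summed over its 24 genes, the list stood at 7599 CPM in the 73 nuclei and 2706 CPM in the others. It stood at 4681 CPM in 85 Pi16-high nuclei (at least 2 Pi16 UMIs) and at 5709 CPM in 81 Csmd1/Bmper nuclei. The latter had at least 3 UMIs of both genes summed, at least 1 of Pdgfra and under 2 of Pi16. Part of the excess over all other nuclei was thus shared with these 2 groups.

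Among the matrix genes, collagens were the most widely found. Col1a1, a chain of the main bone collagen, stood at 1010 CPM against 365 and had UMIs in 55 nuclei, and Col1a2 at 1781 against 564 CPM. Col11a1, a fibrillar collagen, stood at 824 against 47.7 CPM in 38 nuclei, and Col24a1 at 324 against 30.1 CPM. The genes of mineralization sat in fewer nuclei. Alpl stood at 197 against 18.7 CPM, in 29 nuclei, and Ibsp at 102 against 3.65 CPM, in 11. Bglap stood at 77.4 against 1.29 CPM, in 9 nuclei, although reads of Bglap and its near-identical copies may be split uncertainly. Mmp13, a collagenase, stood at 151 against 6.65 CPM with 19 of its 43 UMIs in 1 nucleus of replicate 1. Ibsp or Bglap was found in 19 nuclei (26%) and both in 1. Ifitm5 and Phospho1, genes of mineralizing osteoblasts, had 0 UMIs.

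Osteocyte genes were near 0. Of 6 with 10 UMIs, 0 were at least 2-fold higher and 2 were lower. Dmp1, Mepe, Sost, Irx5 and Dkk1 had no UMI in the 73 nuclei. Osteocytes are the matrix-embedded end stage of the lineage, and Sost and Dmp1 are among their defining genes.

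Of 26 osteoblast lineage transcription factors with 10 UMIs, 13 were at least 2-fold higher and 3 lower, with a median of 1.11. Sp7 stood at 116 against 2.36 CPM, in 17 nuclei. Of the RUNX family, Runx3 stood at 137 against 5.15 CPM in 26 nuclei and Runx1 at 542 against 173 CPM in 49. Runx3 and Runx1 thus lay within the range of the secreted genes of the selection, from 24 nuclei (Ostn, Wnt16) to 51 (Tnc), and Sp7 below it. Dlx5, a homeobox factor upstream of Sp7, stood at 42.2 against 1.93 CPM in 8 nuclei. Prrx1, a factor of limb mesenchyme, stood at 1158 against 491 CPM. Ebf2, expressed in mesenchymal progenitors, went the other way with 236 against 942 CPM, and Osr1 had no UMI against 12.5 CPM.

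Of the stem and progenitor genes, all 4 of Pi16, Dpp4, Cd34 and Ly6a were at least 2-fold lower, with a median of -2.44. Pi16, a marker of perivascular and adventitial fibroblasts, stood at 21.1 against 177 CPM and Dpp4, a surface peptidase of the same cells, at 3.52 against 132 CPM. Cd34 stood at 31.7 against 194 CPM. In the 85 uninjured nuclei with at least 2 Pi16 UMIs, Pi16 stood at 1368 CPM and Runx2 at 84.2 CPM. Their levels of Sp7 and Wnt16 were 0. A wider list of 16 skeletal progenitor markers was mixed, with 4 at least 2-fold higher, 3 lower and a median of -0.13, and summed to 2341 against 1803 CPM. Among these Pdgfrb, a receptor of mesenchymal and mural cells, stood at 253 against 71.9 CPM in 28 nuclei, and Acta2, smooth muscle actin, at 31.7 against 255 CPM.

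Postn stood at 356 CPM (290 to 432, exact Poisson 95% interval) in the 73 nuclei and at 34.8 CPM in the others, an 8.16-fold difference (log2 3.03). A UMI of it was found in 36 nuclei (49.3%) against 5.97% of the others. Averaged over random draws of 500 UMIs per nucleus, the share was 17.4% against 1.99% in the other nuclei and 0.35% in 337 endothelial nuclei (at least 2 Pecam1 UMIs, median 3223 UMIs), which should lack the gene. The Pi16-high nuclei stood at 84.2 CPM, and 81 nuclei with at least 3 UMIs of Csmd1 and Bmper together, at least 1 of Pdgfra and under 2 of Pi16 at 21.2 CPM. Aspn, which encodes the matrix protein asporin, stood at 394 CPM in the 73 nuclei, 130 CPM in the others and 408 CPM in the Pi16-high nuclei. Over draws of 500 UMIs its share was 17.6% of the 73 against 4.51% of the others and 0.23% of endothelial nuclei.

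**Figure D2:**
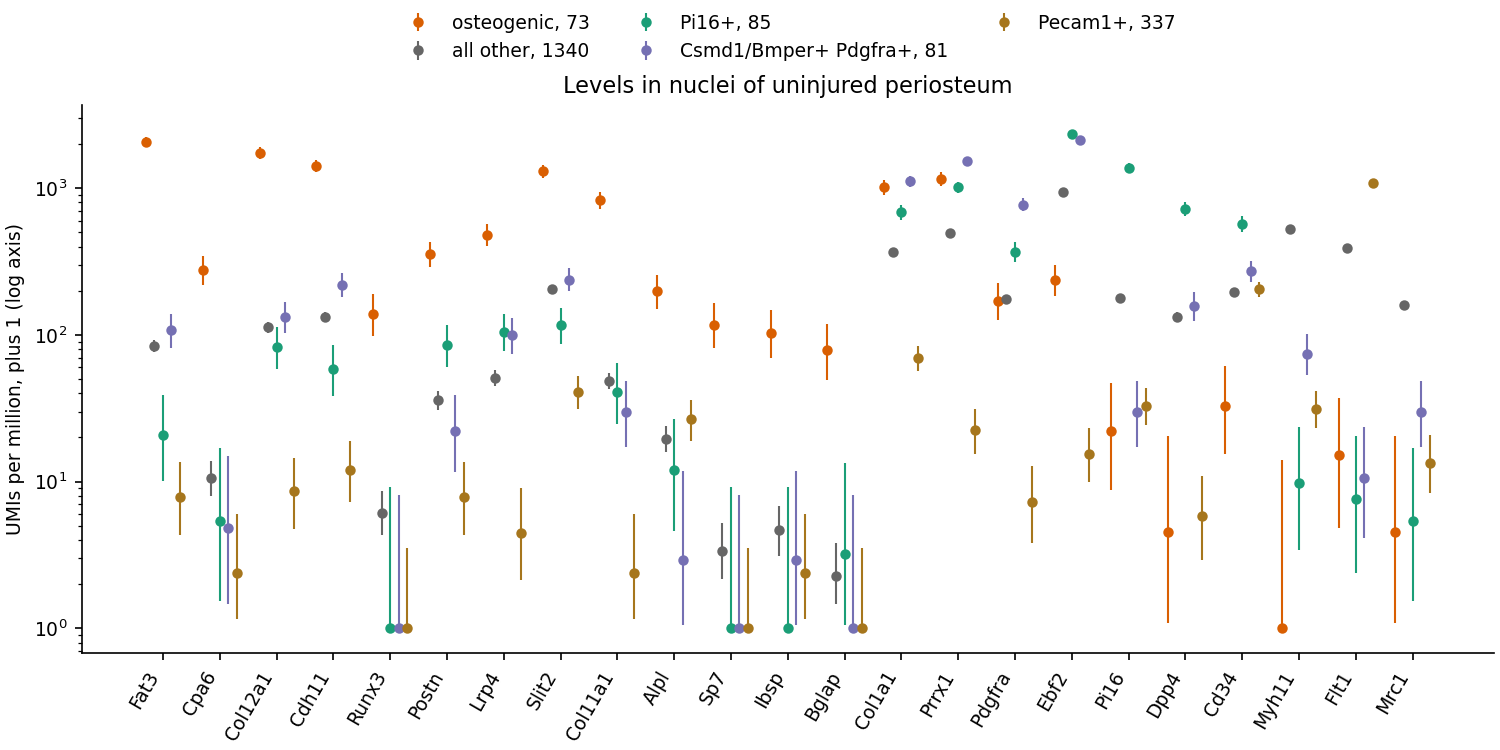
CPM + 1 on a log axis of 23 genes in the osteogenic nuclei and 4 other groups of uninjured nuclei, with exact 95% Poisson intervals. Postn stands at 356 CPM in the osteogenic nuclei and 34.8 CPM in the other nuclei, and Pi16 at 21.1 and 177 CPM.

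Genes outside the selection were then ranked by fold over the other nuclei. Of 1891 genes with a UMI in at least 25% of the 73 nuclei, 814 also had at least 1 UMI in the 2 nuclei of replicate 1. Only these 814 were ranked, so genes without such a UMI were left out whatever their fold. Fat3, an atypical cadherin, led with 584 UMIs in 59 nuclei and stood at 2056 against 83.3 CPM, a 22.1-fold difference. Camk4, a calmodulin-dependent kinase, stood at 422 against 18 CPM, and Cpa6, a secreted carboxypeptidase, at 275 against 9.66 CPM. Col12a1, a fibril-associated collagen, stood at 1739 against 112 CPM. Cdh11, which encodes osteoblast cadherin, was found in 64 nuclei and stood at 1419 against 131 CPM. Ptprd, a receptor phosphatase, was found in 69 nuclei and stood at 6234 against 595 CPM. Fap, a fibroblast surface protease, was found in 62 nuclei and stood at 1728 against 206 CPM. The Pi16-high and Csmd1/Bmper nuclei had Fap at 587 and 436 CPM, and Fat3 at 19.9 and 106 CPM.

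The other leading genes reported here were Runx3, Prtg, Igsf3, Postn, Lrp4, Col8a1, Efna5, Hectd2, Ppfia2, Tnfrsf19, Slit2 and Itga11, with folds of 5.86 to 9.72 over all other nuclei. Over the Pi16-high nuclei Itga11 was under 2-fold higher, at 268 against 133 CPM (log2 0.957). Col8a1 differed from the rest in that 522 of its 815 UMIs (64.0%) lay in the deepest nucleus. Of 270 genes with at least 30 UMIs that were at least 2-fold higher, 24 had over 50% of their UMIs in 1 nucleus.

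Of 22 adhesion and axon guidance genes, 8 were at least 2-fold higher and 4 lower. Tenm3, a teneurin, stood at 1665 against 235 CPM in 61 nuclei, and Slit2, a secreted guidance ligand, at 1306 against 203 CPM in 53. Robo1, a receptor of Slit ligands, stood at 630 against 166 CPM in 42 nuclei, and Ncam1 at 415 against 90.8 CPM in 40. Cdh13 was lower at 88.0 against 1336 CPM, and endothelial nuclei held it at 2814 CPM.

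Wnt signals act through Frizzled receptors with LRP5 and LRP6, while LRP4 binds the inhibitor sclerostin and ROR2 receives WNT5A. Of 10 Wnt ligands with 10 UMIs, 3 were at least 2-fold higher and 2 lower. Wnt5b stood at 257 against 32.2 CPM in 28 nuclei, Wnt10b at 70.4 against 12.0 CPM in 14, and Wnt5a at 45.8 against 14.2 CPM in 7. Of 16 Wnt receptors, 3 were higher and 2 lower. Lrp4 stood at 479 against 50.2 CPM in 37 nuclei and Ror2 at 528 against 101 CPM in 41. Of 23 Wnt modulators and targets 3 were higher and 2 lower, among them the inhibitor Dkk2 at 584 against 175 CPM, whose 166 UMIs lay in 5 nuclei with 63.9% in 1.

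Hormone and growth factor receptors of bone were detected. Of 19 genes of FGF, IGF, parathyroid hormone and steroid signalling with 10 UMIs, 5 were at least 2-fold higher and 4 lower. Fgfr2 stood at 1091 against 281 CPM in 57 nuclei. Pth1r, the parathyroid hormone receptor, stood at 158 against 22.1 CPM in 28 nuclei and Vdr, the vitamin D receptor, at 88.0 against 1.5 CPM in 16. Of 33 BMP and TGF-β genes 8 were higher and 4 lower, and of 19 hedgehog and Notch genes 2 were higher and 8 lower.

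Partners of the selecting genes gave a mixed picture. Of 17 partners of Ptprz1, Tnc and Edil3, 2 were at least 2-fold higher and 1 lower. Ptn, which encodes the PTPRZ1 ligand pleiotrophin, stood at 183 against 35.4 CPM in 18 nuclei. Sdc2, a heparan sulphate proteoglycan, stood at 700 against 223 CPM in 47. Of 7 natriuretic peptide pathway genes, 0 were higher and 3 lower. Npr3, the clearance receptor that binds osteocrin, had 2 UMIs in 1 nucleus. Of 8 genes that link osteoblasts to osteoclasts, 4 were higher and 1 lower, but Tnfsf11 (RANKL) had 6 UMIs in 2 nuclei and Tnfrsf11b (osteoprotegerin) 6 in 5.

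All 7 endothelial markers were at least 2-fold lower, as were 5 of 7 immune, 5 of 7 pericyte and smooth muscle, and 4 of 7 Schwann markers. The selection had left out nuclei with a Ptprc or Pecam1 UMI, whereas the other nuclei still included them. The endothelial list had 9461 UMIs in the other nuclei and 8176 in the 337 endothelial nuclei. The endothelial and immune counts were thus set in part by the selection and are no check on it. Myh11, a defining smooth muscle gene, had no UMI. Other lists were not lower. Of 4 osteoclast markers with 10 UMIs, 3 were at least 2-fold higher and 0 lower, and the 6 markers of the list summed to 180 against 41.0 CPM, with 56% of the 25 UMIs of the protease gene Ctsk in 1 nucleus. Of 4 tendon markers 2 were higher and 0 lower, and the 5 of the list summed to 451 against 123 CPM. The 6 chondrocyte markers summed to 56.3 against 31.6 CPM with 1 of 4 higher and 0 lower, and Sox9, the chondrocyte factor, had no UMI. Of 4 chondrogenic score genes 2 were higher and 0 lower, on 0 to 14 UMIs each. The 5 adipocyte markers summed to 641 against 548 CPM with 1 higher and 0 lower, and 152 of their 182 UMIs lay in 1 nucleus of 18842 UMIs. The 8 myofibre markers summed to 1067 against 676 CPM with 1 of 6 higher and 0 lower. The 6 mitosis genes summed to 21.1 against 17.0 CPM, with 0 of 4 higher or lower. Their part in the results was not tested.

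Clustering gave the same grouping in large part, although the genes of the selection were left out of it. Among 15 clusters of the 1413 nuclei, 1 cluster of 117 nuclei held 66 of the 73 (90.4%). The other 51 nuclei of that cluster were shallower, with a median of 1159 UMIs against 2394.5. They had Runx2 at 2037 CPM against 5051, Fat3 at 1305 against 2519 CPM and Col1a1 at 1476 against 1162 CPM. Of the 51, 16 had at least 2 Runx2 UMIs, 15 had 1, 20 had 0, and 8 held Ptprc or Pecam1. The 7 members outside it were deeper, with a median of 5018 UMIs, and had Runx2 at 692 CPM, Fat3 at 56.1 CPM and Pdgfra at 468 CPM, with no UMI of Ostn, Ptprz1 or Postn. Of these 7, 4 fell in a cluster with Bmper, Dkk2, Fgf7 and C7 among its top genes. A cluster led by Luzp2, 1 led by Gm26870 and 1 with Plin1 among its top genes held 1 each. All 7 stayed in the levels and in the test.

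The 73 nuclei were not uniform. In nuclei thinned to 500 UMIs, 13 held Ostn. In these the mean per nucleus was 0 CPM for Ibsp against 274 in the remaining 60, and 1240 against 456 CPM for Lrp4. Without thinning, 11 of those 60 nuclei also held Ostn. Of all 24 nuclei with Ostn, 3 held Ibsp, and 6 held Ibsp or Bglap. Ibsp was found in 11 of the 73 nuclei. In the same draw 24 nuclei held a UMI of Bglap, Bglap2, Ibsp, Spp1, Alpl or Ifitm5, and their Ptprz1 was 980 against 311 CPM and their Postn 186 against 619 CPM. A further 10 nuclei held at least 5 UMIs of Csmd1, a split chosen after the values were seen. They had no UMI of Alpl, Ibsp, Bglap or Mmp13, and Prrx1 at 2400 against 866 CPM. These splits rest on few nuclei of 1 library and have no test.

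The nuclei taken by the same selection after fracture carried the selecting genes at other levels. Over the 71 nuclei of uninjured replicate 2, Ostn stood at 466 CPM, whereas after fracture it stood at 11.5 and 16.0 CPM (day 3), 9.50 CPM (day 5) and 0 CPM (day 7). The nuclei with a UMI of it numbered 24 of 71, 1 of 38, 1 of 88, 19 of 724 and 0 of 281 in the same order. Uninjured replicate 2 thus stood above all 4 fractured libraries. Wnt16 followed the same order of groups at 210, 0, 14.7, 13.8 and 5.29 CPM, and Ptprz1 at 420, 11.5, 6.14, 52.7 and 27.5 CPM. Pdzrn4, at 929, 397, 214, 940 and 997 CPM, and Edil3, at 1377, 362, 661, 2153 and 2362 CPM, lay within the range of the fractured libraries. Tnc did as well, at 836, 1829, 1071, 2099 and 464 CPM. Since the rule used these genes, no test was made of them.

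**Figure D3:**
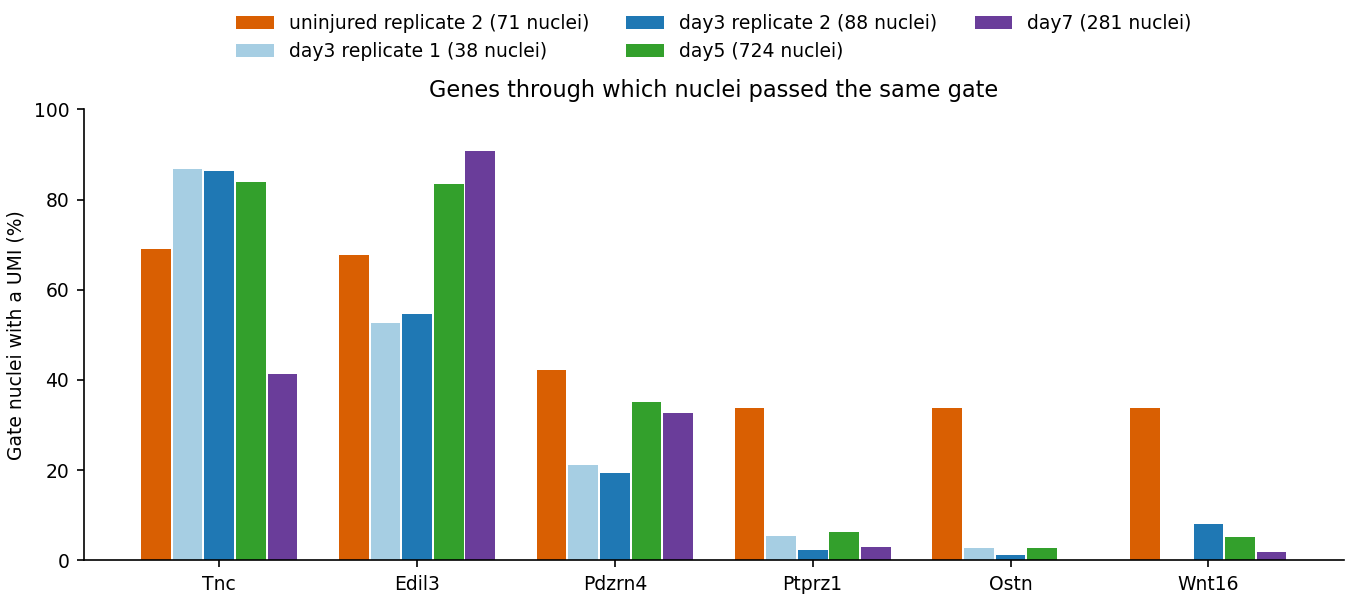
Percent of selected nuclei with a UMI of each of the 6 summed genes in 5 libraries (uninjured replicate 1, with 2 nuclei, is left out). Ostn was found in 24 of 71 nuclei of uninjured replicate 2 and in 1 of 38, 1 of 88, 19 of 724 and 0 of 281 nuclei of the fractured libraries.

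The same genes were also measured without the selection, over all filtered nuclei below the muscle limit with no Ptprc or Pecam1 UMI. Ostn stood at 1.98 CPM in uninjured replicate 1 and 60.5 in replicate 2, then at 5.41 and 9.40 (day 3), 7.46 (day 5) and 11.7 CPM (day 7). Wnt16 stood at 0, 25.9, 2.70, 7.05, 11.3 and 6.14 CPM in that order. Uninjured replicate 2 thus lay above all fractured libraries in both genes. Uninjured replicate 1 cannot be placed against them, since 3 counts there are 5.95 CPM. Its Ostn and Wnt16 values lay below that floor. Runx2 stood at 75.4, 637, 966, 1153, 1897 and 1822 CPM, so that both uninjured libraries lay below all fractured ones. Edil3, at 49.6, 227, 147, 391, 1741 and 1898 CPM, overlapped between the groups, with day 3 replicate 1 below uninjured replicate 2.

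The remaining genes were tested between fractured and uninjured selected nuclei, on UMIs summed per library, with edgeR's quasi-likelihood test and Benjamini-Hochberg adjusted p under 0.05 as the threshold. Uninjured replicate 1 had 2 nuclei, under the minimum of 5, and did not enter. The uninjured side was therefore 1 library, assumed to vary like the 4 fractured ones, and what belongs to that library cannot be told apart from the condition. The selected nuclei also differed in makeup. At least 2 UMIs summed over Sp7, Alpl, Ibsp, Ifitm5 and Bglap were held by 42.3% of them in uninjured replicate 2. After fracture the share was 13.2% and 15.9% (day 3), 28.3% (day 5) and 26.3% (day 7). Whether the calls reflect which nuclei were selected was not tested. Of 10498 genes, 18 were higher after fracture (0.171%) and 89 lower (0.848%), 107 in all (1.02%). An unadjusted p under 0.05 was reached by 1412. Without the day 5 library the counts were 0 and 15, without day 3 replicate 1 they were 3 and 34, and without day 3 replicate 2 they were 33 and 96.

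Bone matrix genes gave no call. Of 21 tested, 0 passed in either direction, where 1.02% of all 10498 genes did. Their median log2 change was 0.77 against 0.12 over all genes. Col1a1 stood at 1022 CPM in uninjured replicate 2 and at 1444, 1972, 2434 and 691 CPM in the day 3, day 3, day 5 and day 7 libraries, the order used in the values that follow. Ibsp stood at 92.5 CPM against 109, 160, 179 and 91.0, Alpl at 199 against 121, 87.2, 136 and 242, and Sp7 at 110 against 80.5, 52.8, 61.5 and 42.3 CPM. The uninjured value lay inside the fractured range for Col1a1, Ibsp and Alpl and above it for Sp7. Bglap stood at 78.3 CPM against 0, 0, 3.85 and 0, and did not pass (adjusted p = 0.071).

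Postn stood at 356 CPM in uninjured replicate 2, below the fractured libraries at 1162, 1475, 3097 and 895 CPM. Its log2 change of 2.33 ± 0.78 (SE) did not pass (adjusted p = 0.256). The share of nuclei with a UMI, averaged over draws of 500 UMIs, was 17.6% against 37.5%, 40.0%, 55.3% and 27.1%. All 4 fractured values were thus above the uninjured one in level and in share.

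Of the 20 leading genes 3 passed, all lower after fracture, with a median of -1.52 over the 20. These genes were chosen for high values in the same uninjured library, so their direction is not independent. Fap stood at 1719 CPM against 276, 371, 443 and 314 (log2 change -2.16, adjusted p = 0.0389). Ptprd stood at 6261 CPM against 546, 838, 1282 and 602 (-2.82, adjusted p = 0.0396). Tnfrsf19, a TNF receptor family member, stood at 149 against 11.5, 14.7, 21 and 22.2 CPM (-2.86, adjusted p = 0.0384). Without any 1 of the fractured libraries Fap and Ptprd no longer passed, at adjusted p of 0.0528 to 0.0947 and 0.0541 to 0.117, and with uninjured replicate 1 added they stood at 0.192 and 0.255. They passed in 10 and 11 of 17 versions of the test. Tnfrsf19 did not pass without day 3 replicate 1 (adjusted p = 0.073) or day 5 (0.0868). Fat3 stood at 2072 CPM against 443, 470, 567 and 87.8 and did not pass (adjusted p = 0.182), and 66 of the 77 Fat3 UMIs of day 3 replicate 1 lay in 1 nucleus. Lrp4 did not pass either, at 481 against 34.5, 45.5, 75.6 and 157 CPM (adjusted p = 0.190).

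Among the 89 lower genes, 41 had a UMI in at least 25% of the 71 uninjured nuclei, and 33 had at least 50% of their uninjured UMIs in 1 nucleus. The widely carried genes named here were chosen after their values were seen. Nlgn1, the adhesion molecule neuroligin-1, had 482 UMIs in 43 of 71 nuclei and stood at 1716 CPM against 23.0, 34.4, 67.2 and 22.2. It fell by 5.33 on the log2 scale (adjusted p = 0.00367). Intu, a planar polarity gene of cilium formation, had 169 UMIs in 38 nuclei and stood at 602 CPM against 17.3, 18.4, 25.3 and 22.2 (-4.66, adjusted p = 0.00274). Fmo1, a flavin monooxygenase, had 96 UMIs in 33 nuclei and stood at 342 CPM against 5.75, 14.7, 10.6 and 13.8 (-4.70, adjusted p = 0.00274). Uninjured replicate 2 stood far above every fractured library in these genes, and Intu and Nlgn1 passed in all 17 versions of the test.

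The next 4 lower genes, known from the circadian clock, were also picked after their values were seen, and no list of clock genes was tested. Nr1d1, a repressor of the clock loop, stood at 149 CPM against 5.75, 16.0, 8.60 and 3.17, with UMIs in 26 uninjured nuclei (-4.01, adjusted p = 0.0223). Nr1d2, its paralogue, stood at 377 against 86.3, 111, 52.5 and 61.4 CPM (-2.21, adjusted p = 0.0415). The clock output factors Hlf and Tef fell by 3.28 and 2.65 on the log2 scale (adjusted p = 0.0127 and 0.0328). The adjusted p rose to 0.0577, 0.0805 and 0.0577 for Nr1d1, Nr1d2 and Tef without day 3 replicate 1, to 0.072, 0.0951, 0.0541 and 0.0652 for Nr1d1, Nr1d2, Hlf and Tef without day 5, and to 0.0569 for Nr1d2 without day 7. Of the 25 osteoblast lineage factors tested 1 passed, Tbx2, a T-box repressor, at 110 CPM against 5.75, 8.60, 15.4 and 8.47 (-3.21, adjusted p = 0.0384, with 0.073 without day 3 replicate 1 and 0.0657 without day 5).

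The 10 largest falls by the naming rule were Cfd, Plin1, Pck1, Fmo2, C7, Nrg4, Trpc5, Gm16168, Tmem45b and Caln1. For all but Caln1 at least 91% of the uninjured UMIs lay in 1 nucleus. Cfd, Plin1 and Pck1, which are adipocyte genes, were led by the nucleus with 18842 UMIs and the high adipocyte markers. Cfd had 54 UMIs in 2 uninjured nuclei and none in the fractured ones. Caln1, a calcium-binding protein gene, had 96 UMIs in 16 nuclei and stood at 342 CPM against 5.75, 1.23, 1.81 and 6.35 (-6.69, adjusted p = 0.00367). The adipocyte list had 2 lower calls of 4 tested, and its sum was 648 CPM against 11.5 to 41.8. The myofibre list had 1, Myh4, and its sum was 1075 CPM in uninjured replicate 2 against 216 to 583. A myofibre UMI was found in 94.4% of the 71 nuclei against 27.5% to 75% of those after fracture, and its part in the result was not tested. Without nuclei of at least 3 adipocyte list UMIs the counts were 7 higher and 53 lower, an alternative chosen after seeing the data. Of the other lists, Wnt modulators gave 1 lower call (Dkk2), adhesion genes gave 1 (Tenm4, with 50.8% of its uninjured UMIs in 1 nucleus), and the rest gave 0. Over all genes 1.02% passed.

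Genes that rose after fracture were few in the uninjured nuclei. The rule named Brinp3, A630023A22Rik, 2600014E21Rik, Ptgs2, Ank3, Vcan, Csgalnact1, Kif26b, Bcat1 and Glis3. Kif26b, a kinesin family gene, stood at 32.0 CPM against 541, 590, 545 and 520, and rose with a log2 change of 4.22 ± 0.52 (adjusted p = 0.0146), although 67 of its 94 UMIs in day 3 replicate 1 lay in 1 nucleus. Csgalnact1, an enzyme that starts chondroitin sulphate chains, stood at 74.7 CPM against 2048, 1593, 1403 and 1454 (4.57, adjusted p = 0.0237). Vcan, which encodes the chondroitin sulphate proteoglycan versican, stood at 24.9 CPM against 759, 840, 519 and 276 (4.66, adjusted p = 0.0384). Glis3, a zinc finger factor, stood at 160 CPM against 2582, 2432, 1750 and 1747 (3.85, adjusted p = 0.0345). Without day 3 replicate 1 the adjusted p of Csgalnact1, Vcan and Glis3 was 0.0552, 0.0753 and 0.073, and without day 5 that of all 4 was 0.0541 to 0.0841. The fractured libraries lay above the uninjured one in each, and the 4 had UMIs in 3 to 14 of the 71 uninjured nuclei.

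Of the 18 higher genes, 4 had no uninjured UMI. Brinp3, a BMP and retinoic acid inducible family gene, had 0 UMIs in 71 nuclei, and 460, 236, 1052 and 479 CPM after fracture, at least 52.2-fold higher against a floor of 3 counts in the uninjured library. Its adjusted p of 0.0458 became 0.113, 0.0541 and 0.0528 without day 3 replicate 1, day 5 and day 7. A630023A22Rik and 2600014E21Rik were at least 7.18-fold and 6.29-fold higher. Ptgs2, which encodes cyclooxygenase-2, had 1 uninjured UMI and 63.3, 94.6, 79.0 and 105 CPM after fracture. A630023A22Rik, 2600014E21Rik and Ptgs2 no longer passed without day 3 replicate 1 (adjusted p = 0.0599, 0.0714 and 0.073) or without day 5 (0.0841, 0.0728 and 0.1), nor did A630023A22Rik and Ptgs2 without day 3 replicate 2 (0.0556 and 0.055).

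Lists of cartilage and of cell division gave no call. The 6 chondrocyte markers summed to 56.9 CPM in uninjured replicate 2 and to 74.8, 240, 2429 and 5663 CPM in the fractured libraries. The 6 mitosis genes summed to 21.4 CPM against 500, 566, 224 and 111. By edgeR 0 of 6 passed in each list, where 1.02% of all genes did. The uninjured value lay below all 4 fractured libraries for 2 of the 6 chondrocyte markers and for 6 of the 6 mitosis genes. Over all 10498 tested genes it lay below all 4 for 2545 and above all 4 for 3225.

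**Figure D4:**
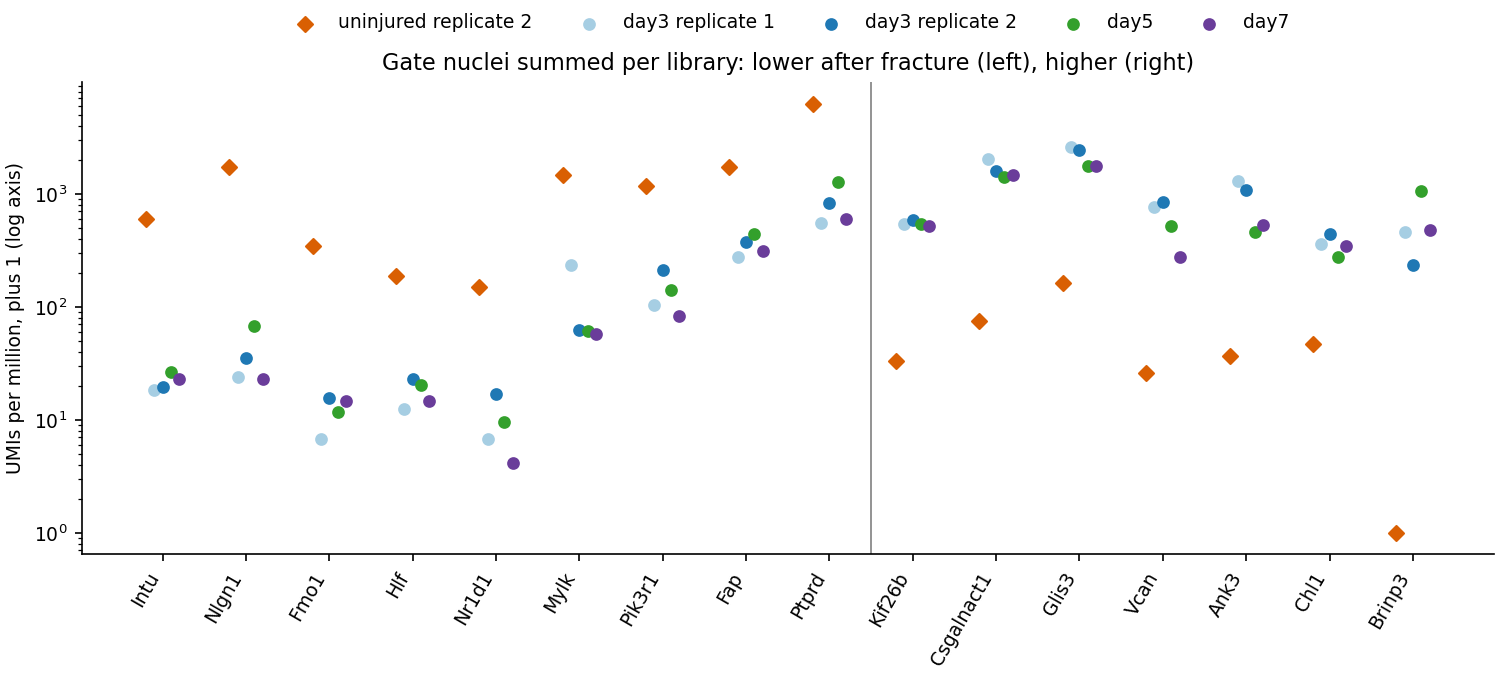
CPM + 1 on a log axis of genes called between fractured and uninjured selected nuclei, 1 point per library. Intu stands at 602 CPM in the uninjured library and at 17.3 to 25.3 CPM in the fractured libraries, and Kif26b at 32.0 and 520 to 590 CPM.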

How the data were processed

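The authors deposited unnormalized UMI counts, a gene by barcode matrix, for 6 libraries, made with Cell Ranger (6.0.0 or 7.1.0 per the file headers) from intronic and exonic reads, with the mouse build mm10 per the submitters' processing notes. The extract protocol in the labels names a human build, but the gene identifiers are of mouse. Libraries listed 31055 to 32287 genes, and the 30406 listed in all hold 98.9% to 99.8% of UMIs.

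The members, the gene lists and the comparisons were chosen with earlier results of these data known. Thinning drew 500 UMIs per nucleus. Nuclei were clustered with scanpy 1.11.5 (2000 variable genes, 15 components, Leiden resolution 0.5) without the 13 genes of the selection, and doublets were called with Scrublet (expected rate 6%) and kept. UMIs of selected nuclei were summed per library and tested with edgeR 4.0.16 (filterByExpr, TMM, quasi-likelihood test) without the 13 genes of the selection. DESeq2 1.42.0, other scaling, filters and gates were alternatives. Leading genes were the 20 largest folds over the other nuclei. They had to be found in at least 25% of members and to hold at least 1 UMI in the 2 members of replicate 1. Test genes were the 10 largest called changes per direction whose mean CPM reached at least 50 in the group where it was higher. Of the 20, 1 leading gene is not reported here. Promoters are from RefSeq (GRCm38.p6). The versions were R 4.3.3, Python 3.11.15, numpy 2.4.6, scipy 1.17.1, pandas 2.3.3 and matplotlib 3.10.9. The test was checked on simulated counts.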

Additional observations from a re-analysis of the deposited data

How the results depend on the processing

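The selection on nuclei thinned to 1000 UMIs kept 39 nuclei, and leaving out either uninjured library gave 2 or 71. The log2 difference of Postn was 3.32 over the nuclei of the main cluster alone, an alternative chosen after seeing the data, and 2.93 to 3.34 with 1 uninjured library left out. The bone matrix genes at least 2-fold higher then numbered 4 to 12. A Postn UMI was found in 26% of nuclei in 1 draw of 500 UMIs, 49.3% without thinning and 25.4% to 50% with 1 library left out. The log2 difference of 3.34 and the share of 50% are those of replicate 1 alone, with 1 Postn UMI in its 2 nuclei.

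Genes higher after fracture numbered 18, and lower genes 89. With DESeq2 they were 57 and 149, with no filter on low counts 110 and 292, and with day 3 alone 172 and 258. The Cell Ranger version as a covariate gave 62 and 125, with 85 of the 107 called genes shared. Among the libraries tested, uninjured replicate 2 and both of day 3 had version 7.1.0, and days 5 and 7 had 6.0.0. That fit thus in effect compared day 3 with uninjured nuclei, and it cannot separate the version from the day. Leaving out 1 fractured library gave 0 to 33 higher and 15 to 96 lower, with 3 and 34 without day 3 replicate 1. Chosen after seeing the data were the following. Adding uninjured replicate 1 with its 2 nuclei gave 73 higher and 92 lower, with 56 of the 107 called genes shared. Removing nuclei with adipocyte list UMIs gave 7 and 53, and thinning to 500 UMIs 4 and 10 of 1637 genes. Limits of 1 UMI in the selection gave 19 and 68, with 52 genes shared. Without uninjured replicate 2 no test was possible, since no uninjured library was left. Single genes kept their direction and side of the threshold in 592 cases, 118 no longer passed, 7 newly passed and 2 changed sign, Alpl at 0.22 with limits of 1 UMI and Ibsp at -0.26 on thinned nuclei. The causes were not tested. No paired analysis was possible because the labels pair no uninjured with a fractured library.

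Depth limits single genes, since a gene without a UMI in the 73 nuclei could stand at up to 10.6 CPM.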

Other observations

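Values carried by single nuclei stood out among the 73. The deepest nucleus (23675 UMIs) held 522 of 815 UMIs of Col8a1, 186 of 195 of Rtl4, a retrotransposon-derived gene, and 77 of 79 of Trpc5, a calcium channel. Another nucleus held 38 of 41 UMIs of Hhip, which encodes a hedgehog-binding inhibitor. A further nucleus, with 18842 UMIs, held 41 of 43 UMIs of Plin1, a lipid droplet protein, and 53 of 54 of Cfd, the adipokine adipsin. Lacking replicate nuclei, these values describe those barcodes only.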
